A study of Homo sapiens with 12 samples.

Results

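The genes described here keep the endoplasmic reticulum (ER) able to fold, admit and discard proteins. They are 41 genes, picked by symbol from the 19923 genes in the count files. The sensor group of the unfolded protein response (UPR) here means the sensors ATF6 and ERN1 with the transcription factor XBP1. EIF2AK3, also a UPR sensor, is not among the 41 genes. Next come ER chaperones, the lectin folding cycle and oxidative folding enzymes. The rest are the translocation channel with its partners, ER-associated degradation, and 1 coat gene for ER exit. The RNA came from established human neuroblastoma lines, SK-N-BE2 and NGP, which the labels give as MYCN-amplified with WT genotype, and was sequenced after selection for poly(A). Each line was kept for 6 days with DMSO, the solvent control, or with STM2457, a small-molecule inhibitor of METTL3, the enzyme that writes N6-methyladenosine onto messenger RNA. The STM2457 dose was 12 µM in SK-N-BE2 and 1 µM in NGP, with 3 replicates in each of the 4 groups. The labels do not say whether replicates were separate cultures, so p-values measure the spread between these libraries. Line, dose and sequencing run cannot be told apart, since the file headers name 1 run for each line.

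The ER folds proteins that are to be secreted or set into membranes. Its lead chaperone is HSPA5 (BiP), and calnexin and calreticulin hold glycoproteins while protein disulphide isomerases form their disulphide bonds. Chains that do not fold are handed to degradation: EDEM proteins trim their sugars, SEL1L and the ubiquitin ligase SYVN1 form the core of an export complex with derlins and HERPUD1, and the proteasome destroys them. When unfolded protein gathers, ERN1 (IRE1) splices XBP1 mRNA, ATF6 is released from the membrane to act as a transcription factor, and EIF2AK3 (PERK) slows translation and favours ATF4. XBP1 and ATF6 are known to raise chaperone and degradation genes. Gene counts do not show XBP1 splicing or ATF6 cleavage, which were not analysed here.

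The libraries held between 47242379 and 58159937 counted reads. NGP DMSO replicate 1 stood apart from the other NGP controls: the biological coefficient of variation of the NGP fit was 0.155 with it and 0.0944 without it. Of 7 adrenergic neuroblastoma markers, NGP held all 7 and SK-N-BE2 6 at 1 CPM or more (reads scaled to library size, on a common TMM scale). The summed level of 6 fibroblast-like or mesenchymal markers was 105 to 120 CPM in SK-N-BE2 with DMSO and 191 to 205 CPM with STM2457. In NGP it was 74.4 to 85.9 CPM with DMSO and 291 to 328 CPM with STM2457. Mean COL1A1 with DMSO and STM2457 was 8.42 and 18.4 CPM in the first line and 29.8 and 124 CPM in the second. Mean PDGFRB was 38.6 and 49.3 CPM in the first and 29.6 and 141 CPM in the second. Of the rest of the list, mean DCN was 44.7 and 97.4 CPM in SK-N-BE2 and 0.16 and 1.62 CPM in NGP. Mean LUM was 19.96 and 34.44 CPM in SK-N-BE2 and 5.86 and 22.2 CPM in NGP. PRRX1 moved little, with means of 0.027 and 0.025 CPM in SK-N-BE2 and 15.72 and 18.46 CPM in NGP. COL1A2 stayed below 0.06 CPM on average in every group. The summed Schwann-like, immune and endothelial markers reached at most 2.66, 7.37 and 9.92 CPM in any library. The summed mesenchymal markers thus moved with the treatment in both lines, and their part in the results below was not tested. The summed adrenergic markers overlapped between treatments, at 5451 to 6465 CPM and 5569 to 5718 CPM in SK-N-BE2 and at 5743 to 6572 CPM and 5605 to 6793 CPM in NGP. In bulk RNA, fewer cells of a type and less RNA per cell cannot be told apart.

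Promoters of several of these genes carry the ER stress response elements through which ATF6 and XBP1 are known to act together with the CCAAT-binding factor NF-Y. RefSeq windows from 250 bases before to 50 bases after the start site were matched for 37 of the 41 genes and searched on both strands. ERSE (CCAAT, any 9 bases, CCACG) was present in 7 of the 37 windows (18.9%), against 0.126% of all 15085 windows. ERSE-II (ATTGG, any base, CCACG) was present in 3 (8.11%), against 0.0795% of all windows. The UPRE core TGACGTGG was present in 3 (8.11%), against 0.855% of all windows, and in HYOU1 it overlapped an ERSE-II match. The C/EBP-ATF composite TGATGCAAT was present in 0 of the 37 and in 0.179% of all windows. The 41 genes were picked as genes of this response, so shares above those of all windows are no independent result. A match describes letters and is no measurement of binding. The stretches of 8 genes are shown because the responses of these genes differ below although they share the element. Build and coordinates are those of RefSeq on GRCh38.p14, each sequence is written 5′ to 3′ on the gene's strand, and capitals mark the 2 conserved blocks of the element.
HSPA5, ERSE, chr9:125241381-125241419, minus strand: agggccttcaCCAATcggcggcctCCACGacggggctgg
XBP1, ERSE, chr22:28800593-28800631, minus strand: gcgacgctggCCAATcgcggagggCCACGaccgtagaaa
CRELD2, ERSE, chr22:49918544-49918582, plus strand: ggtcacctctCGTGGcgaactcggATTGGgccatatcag
CALR, ERSE, chr19:12938374-12938412, plus strand: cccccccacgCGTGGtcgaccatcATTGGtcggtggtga
ERO1B, ERSE, chr1:236282173-236282208, minus strand: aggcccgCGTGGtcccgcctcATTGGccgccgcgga
HERPUD1, ERSE-II, chr16:56932015-56932045, plus strand: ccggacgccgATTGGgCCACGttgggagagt
SDF2L1, ERSE-II, chr22:21642104-21642134, plus strand: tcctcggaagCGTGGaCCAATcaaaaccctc
HYOU1, ERSE-II, chr11:119057264-119057400, minus strand: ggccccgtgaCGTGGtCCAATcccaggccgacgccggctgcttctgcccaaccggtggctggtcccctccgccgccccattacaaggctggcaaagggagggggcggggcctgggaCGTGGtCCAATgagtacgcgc
HYOU1 carried 2 matches and the other 7 carried 1 each. In CRELD2, CALR, ERO1B, SDF2L1 and HYOU1 the element read on the opposite strand, so its blocks appear as their reverse complements. The match lay nearest to the start site in XBP1, from 52 to 34 bases upstream, and next in HSPA5, from 66 to 48 bases upstream. None of the 8 stretches overlapped an exon of the annotation used for counting, except for 5 bases of the XBP1 stretch that fell in an exon of XBP1 itself.

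**Figure D1:**
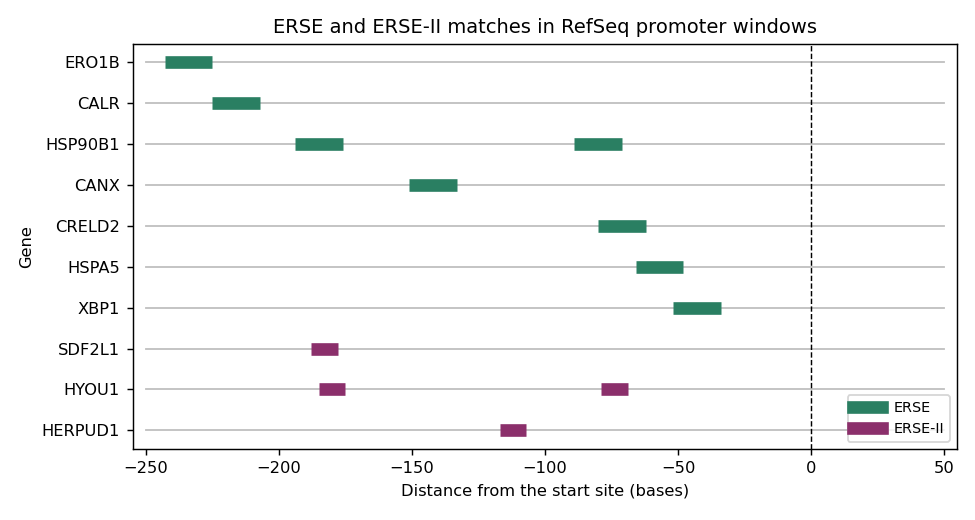
Positions of ERSE (green) and ERSE-II (purple) matches in the promoter windows of the 10 genes that held one, as distance in bases from the RefSeq start site (dashed line). HSP90B1 and HYOU1 each held 2 matches, and the match of XBP1 lay closest to the start.

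The 2 lines differed in these genes before any inhibitor. Of the 40 genes tested, 16 were higher and 12 lower in SK-N-BE2 DMSO than in NGP DMSO, against 35.7% higher and 35.4% lower of all 14731 genes tested, so the share of calls was near that of all genes. The arms divided: 7 of 9 chaperones were higher in SK-N-BE2 and 0 lower, whereas ATF6, ERN1 and XBP1 were all lower. HYOU1, a large HSP70-type chaperone, was higher by 1.91 (log2, SE 0.08, adjusted p = 5.96e-11), and CALR by 1.55 (SE 0.11, adjusted p = 7.78e-09). ERN1 was lower in SK-N-BE2, at -1.55 (SE 0.17, adjusted p = 1.04e-06), and so was HERPUD1, at -1.10 (SE 0.08, adjusted p = 2.18e-08). Per exon length (RPKM, reads scaled to exon length and library size), CALR led the group in SK-N-BE2 DMSO at 246 ± 20.5 RPKM (SD, n = 3), with HSPA5 at 229 ± 34.5, within its spread, and HSP90B1 at 147 ± 7.84. In NGP DMSO the order began with XBP1 at 163 ± 14.5 RPKM (SD, n = 3), followed by HERPUD1 at 125 ± 8.25 and CANX at 121 ± 18.3, which did not differ beyond their spread.

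DERL3, a derlin of the degradation channel, had 0 reads in all 12 libraries and was not tested. Of its exon length, 77.0% is shared with SMARCB1 on the other strand, and the counting used no strand option, so reads there were ambiguous. TXNDC5, a disulphide isomerase, lay between 0.833 and 2.78 CPM, and 61.1% of its exon length is shared with other counted genes, among them a readthrough gene, so its values are uncertain. For PDIA6 25.2% of exon length is shared with ATP6V1C2 on the other strand. For DNAJB11, PDIA3 and HSP90B1 between 11.6% and 14.7% is shared with other counted genes. Those values carry the same uncertainty. For TXNDC11, SSR3 and P4HB between 10.1% and 11.1% is shared with GENCODE 44 genes on the other strand. Only 1.70% for TXNDC11 and 0% for SSR3 and P4HB is shared with counted genes. Reads from the other strand could therefore have been counted for these 3 genes. The same holds for CALR (9.95%), EDEM1 (9.37%), HYOU1 (8.64%), ERN1 (8.14%) and ERO1A (7.70%), which share 0% with counted genes. Smaller shares of other genes are not listed.

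In SK-N-BE2 most of these genes fell with STM2457. Of the 40 tested, 32 fell, 2 rose and 6 were not called, against 27.8% lower and 26.9% higher of all 14013 genes tested. The median log2 fold change was -0.56 over the 40 genes and -0.02 over all genes. ATF6, ERN1 and XBP1 all fell, as did 8 of 9 chaperones and 7 of 8 translocation genes. So did 7 of 8 degradation genes, 5 of 8 oxidative folding genes and the coat gene SEC24D.

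**Figure D2:**
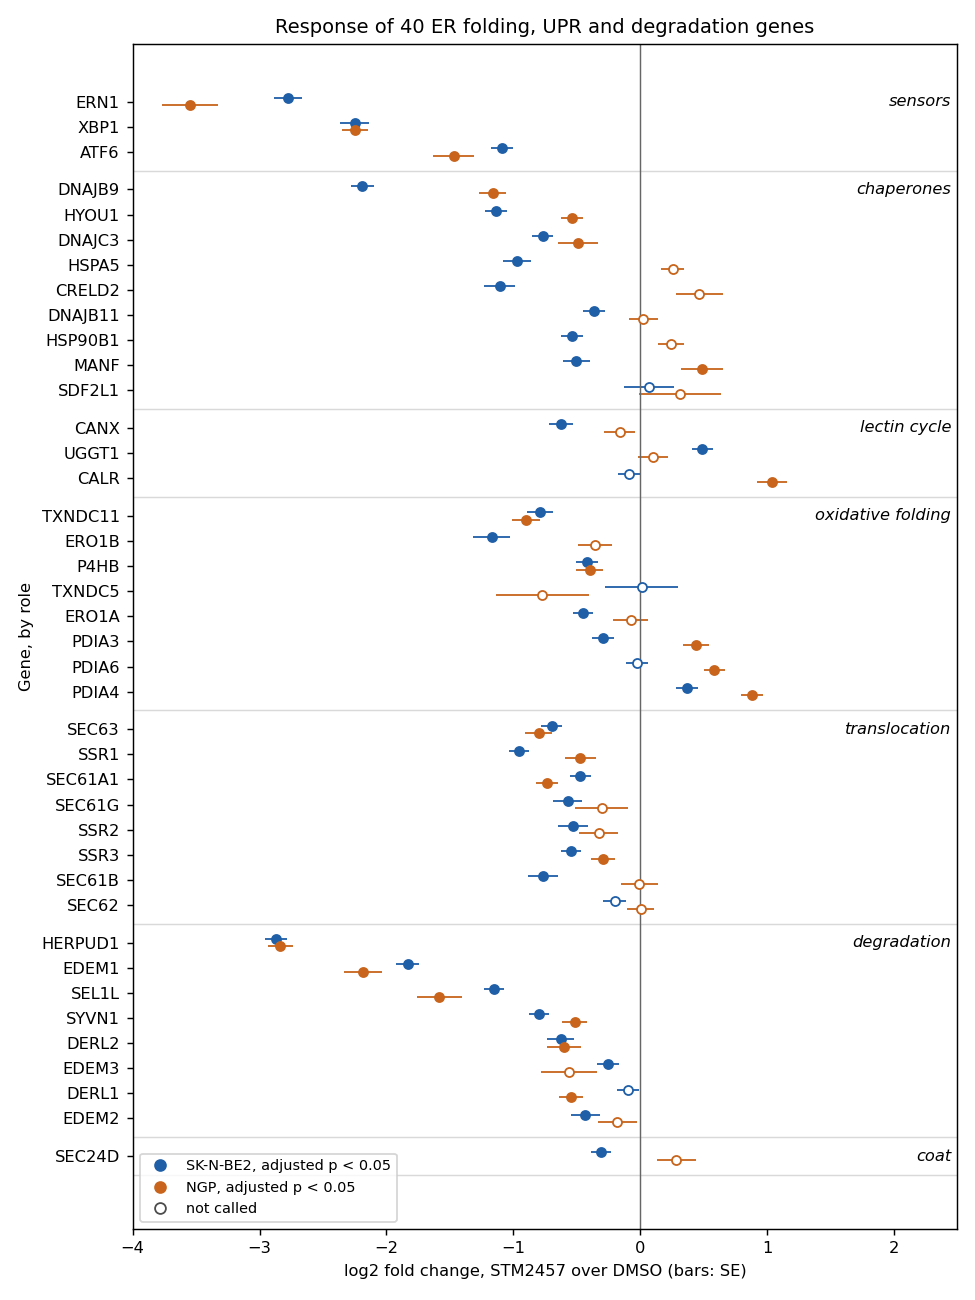
Log2 fold change of STM2457 over DMSO for the 40 tested genes, grouped by role, in SK-N-BE2 (blue) and NGP (orange), with bars for the standard error and filled points where the adjusted p was under 0.05. The sensor group (ATF6, ERN1 and XBP1), HERPUD1, EDEM1 and SEL1L lie far to the left in both lines. HSPA5, CRELD2, MANF, PDIA3 and CALR lie further right in NGP than in SK-N-BE2.

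ERN1 and XBP1 were among the deepest falls. ERN1, the kinase and RNase that splices XBP1 mRNA (chr17:64039142-64130819, minus strand), was at 42.6, 47.0 and 42.2 CPM in the SK-N-BE2 DMSO libraries and at 6.02, 7.42 and 6.36 CPM with STM2457. All treated libraries lay far below all controls, a 6.84-fold fall (log2 -2.77, SE 0.11, adjusted p = 8.77e-10, edgeR quasi-likelihood test). XBP1, the transcription factor made from the spliced message (chr22:28794555-28800597, minus strand), stood at 304, 417 and 339 CPM with DMSO and at 77.4, 78.7 and 72.7 CPM with STM2457. Its groups did not overlap, and the treated libraries lay close together while the controls were spread; the fall was 4.76-fold (log2 -2.25, SE 0.11, adjusted p = 6.28e-09). ATF6, the membrane-held transcription factor (chr1:161766320-161964070, plus strand), was at 181, 186 and 158 CPM with DMSO and at 84.0, 86.8 and 81.8 CPM with STM2457. It too fell without overlap (log2 -1.09, SE 0.09, adjusted p = 3.34e-07).

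Among the chaperones HSPA5 (chr9:125234853-125241343, minus strand) was at 814, 1055 and 828 CPM in the SK-N-BE2 DMSO libraries and at 457, 479 and 478 CPM with STM2457. Each treated library lay below each control, and HSPA5 fell by 0.97 on the log2 scale (SE 0.11, adjusted p = 7.87e-06). The largest chaperone fall was that of DNAJB9 (ERdj4), a cochaperone of HSPA5 (chr7:108569867-108574850, plus strand). DNAJB9 stood at 130, 152 and 132 CPM with DMSO and 31.3, 31.7 and 30.2 CPM with STM2457. Its groups were far apart (log2 -2.19, SE 0.09, adjusted p = 9.38e-10). HYOU1 fell by 1.14, CRELD2, a secreted disulphide isomerase-like protein, by 1.11, DNAJC3 by 0.77, HSP90B1 (GRP94) by 0.54, MANF, an ER-resident secreted factor, by 0.50 and DNAJB11 by 0.36 on the log2 scale. The chaperone that was not called was SDF2L1, a partner of DNAJB11, at 12.5 to 20.7 CPM with DMSO and 14.2 to 24.1 CPM with STM2457 (adjusted p = 0.781).

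The lectin cycle did not move as one. UGGT1, which adds a glucose back to unfolded glycoproteins so that they rebind the lectins (chr2:128091200-128195677, plus strand), was in SK-N-BE2 at 92.7, 88.9 and 83.6 CPM with DMSO and 123, 137 and 123 CPM with STM2457. All treated libraries were above all controls, and it rose (log2 0.49, SE 0.08, adjusted p = 0.000215). The membrane lectin CANX fell by 0.62 (adjusted p = 7.93e-05). The soluble lectin CALR was at 617, 728 and 661 CPM with DMSO and 654, 635 and 650 CPM with STM2457, groups that overlapped (log2 -0.09, SE 0.09, adjusted p = 0.444).

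In oxidative folding the isomerase PDIA4 (chr7:149003062-149028662, minus strand) rose in SK-N-BE2. Its controls were at 123, 147 and 137 CPM and its treated libraries at 176, 176 and 188 CPM, with no overlap (log2 0.37, SE 0.09, adjusted p = 0.00284). ERO1B, an oxidase that recharges the isomerases (chr1:236215101-236281958, minus strand), was low, at 9.81, 7.47 and 9.06 CPM with DMSO and 3.93, 4.22 and 3.86 CPM with STM2457. It fell without overlap (log2 -1.17, SE 0.14, adjusted p = 1.78e-05). Its paralogue ERO1A fell by 0.45, TXNDC11 by 0.79, P4HB by 0.42 and PDIA3 by 0.29, while PDIA6 was at -0.03 (adjusted p = 0.805). The call of PDIA3 was lost without STM2457 replicate 2 or 3 (adjusted p up to 0.0643).

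The translocation genes bring new chains into the ER, and their median log2 fold change of -0.56 was that of the whole group. SSR1, a subunit of the translocon-associated complex, fell by 0.95 (adjusted p = 6.55e-07), SEC61B by 0.77, SEC63 by 0.70, SEC61G by 0.57, SSR3 by 0.55, SSR2 by 0.53 and SEC61A1, the channel itself, by 0.47. SEC62 was at -0.20 (adjusted p = 0.0710). SEC24D, a cargo-binding subunit of the COPII coat, fell by 0.31 (adjusted p = 0.00409), a call lost in the joint fit of all libraries (adjusted p = 0.0803).

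Degradation genes held the deepest fall of the group. HERPUD1, the ER membrane protein that links the ligase to the derlins (chr16:56932142-56944864, plus strand), was at 279, 317 and 292 CPM in the SK-N-BE2 controls and at 41.3, 40.7 and 42.6 CPM with STM2457. The groups were far apart, and the treated libraries nearly coincided (7.32-fold lower, log2 -2.87, SE 0.09, adjusted p = 5.59e-11). Per exon length HERPUD1 dropped from rank 12 to rank 30 among the 41 genes. EDEM1, a mannosidase-like protein that marks glycoproteins for disposal (chr3:5187646-5219958, plus strand), stood at 93.9, 98.0 and 88.0 CPM with DMSO and at 26.2, 29.3 and 25.2 CPM with STM2457. Again no libraries overlapped (log2 -1.83, SE 0.09, adjusted p = 5.17e-09). SEL1L fell by 1.15, its ligase partner SYVN1 by 0.79, DERL2 by 0.62, EDEM2 by 0.43 and EDEM3 by 0.25. The EDEM3 call was lost without DMSO replicate 1 or without any 1 of the 3 treated libraries (adjusted p up to 0.107), and also in the joint fit (adjusted p = 0.350). DERL1 was at -0.10 (adjusted p = 0.355).

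**Figure D3:**
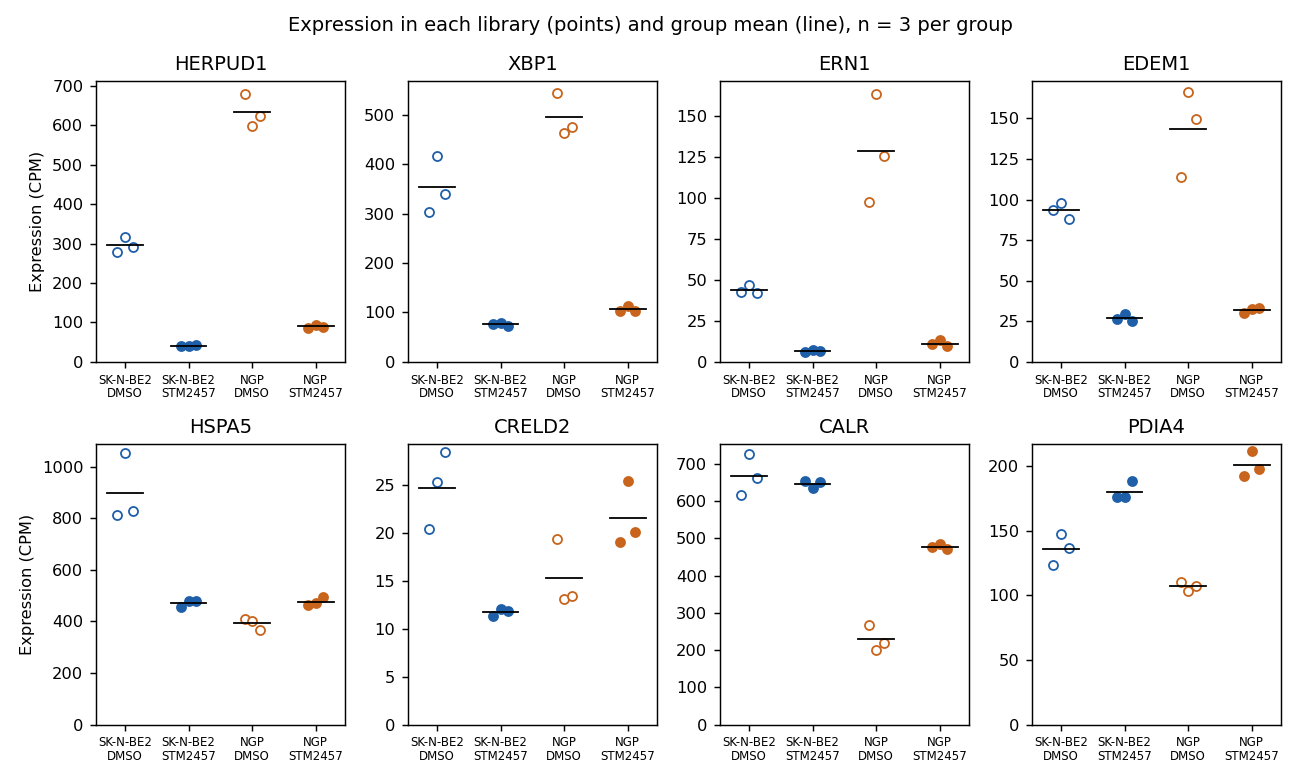
Expression in CPM of 8 genes in each of the 12 libraries (points, open for DMSO and filled for STM2457), with the group mean as a line (n = 3 per group). HERPUD1, XBP1, ERN1 and EDEM1 are low with STM2457 in both lines, HSPA5 and CRELD2 are low with STM2457 in SK-N-BE2, and CALR and PDIA4 are high with STM2457 in NGP.

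NGP gave a divided picture. Of the 40 genes, 18 fell, 5 rose and 17 were not called, against 22.2% lower and 19.4% higher of all 13610 genes tested. The median log2 fold change was -0.34, against -0.03 over all genes. ATF6, ERN1, XBP1 and 6 of 8 degradation genes fell, while 5 of the 20 folding genes fell (25.0%) and 5 rose (25.0%). These folding shares were near those of all genes. Without NGP DMSO replicate 1, the control that stood apart, 23 fell and 9 rose.

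ERN1 in NGP was at 97.5, 163 and 125 CPM with DMSO and at 10.8, 13.2 and 9.53 CPM with STM2457. The controls were spread and the treated libraries far below them, an 11.7-fold fall (log2 -3.55, SE 0.22, adjusted p = 1.5e-05). XBP1 was at 545, 463 and 476 CPM with DMSO and 102, 112 and 104 CPM with STM2457. No libraries overlapped (4.74-fold lower, log2 -2.25, SE 0.10, adjusted p = 4.07e-06), and per exon length XBP1 moved from rank 1 to rank 13 of the 41 genes. ATF6 stood at 225, 350 and 310 CPM with DMSO and 98.0, 112 and 115 CPM with STM2457. Its lowest control, replicate 1, was still above every treated library (log2 -1.47, SE 0.16, adjusted p = 0.000247).

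HERPUD1 was again the deepest fall of the degradation genes. In NGP it was at 681, 599 and 624 CPM with DMSO and 87.1, 94.4 and 89.7 CPM with STM2457. The groups were far apart (7.14-fold lower, log2 -2.84, SE 0.10, adjusted p = 1.48e-06), and the gene moved from rank 2 to rank 21 per exon length. EDEM1 was at 114, 166 and 150 CPM with DMSO and 30.4, 32.8 and 33.3 CPM with STM2457. SEL1L, the scaffold of the export complex (chr14:81471547-81533853, minus strand), was at 175, 293 and 263 CPM with DMSO and 77.1, 84.9 and 86.2 CPM with STM2457. Both fell without overlap, EDEM1 by 2.18 (SE 0.15, adjusted p = 2.69e-05) and SEL1L by 1.58 (SE 0.18, adjusted p = 0.000285), although replicate 1 was the lowest control in each. DERL2 fell by 0.60, SYVN1 by 0.51 and DERL1 by 0.55. DERL1, a derlin of the export channel, was at 117, 127 and 135 CPM with DMSO and 89.6, 84.9 and 89.6 CPM with STM2457, with no overlap (SE 0.10, adjusted p = 0.00258). EDEM2 (adjusted p = 0.381) and EDEM3 (adjusted p = 0.0748) were not called.

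The 5 rises in NGP all lay in folding genes, whose share of rises (25.0%) was near the 19.4% of all genes. CALR (chr19:12938578-12944489, plus strand) was at 267, 201 and 218 CPM with DMSO and at 477, 485 and 472 CPM with STM2457. The treated libraries lay close together and above all controls, a 2.05-fold rise (log2 1.04, SE 0.12, adjusted p = 0.000278). PDIA4 was at 110, 104 and 107 CPM with DMSO and 192, 212 and 198 CPM with STM2457. It rose without overlap (log2 0.88, SE 0.09, adjusted p = 0.000148) and was the gene of the 41 that rose in both lines. PDIA6, another disulphide isomerase, was at 204, 210 and 214 CPM with DMSO and 319, 316 and 323 CPM with STM2457. The gap between its groups was much wider than either group (log2 0.58, SE 0.08, adjusted p = 0.000888).

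PDIA3, the isomerase that works with the lectins (chr15:43746410-43773278, plus strand), and MANF (chr3:51385291-51389397, plus strand) fell in SK-N-BE2 and rose in NGP. For PDIA3 the SK-N-BE2 libraries were at 437, 516 and 458 CPM with DMSO and 401, 393 and 388 CPM with STM2457. In NGP it was at 334, 300 and 266 CPM with DMSO and 411, 417 and 415 CPM with STM2457. The treated libraries lay below all controls in the first line and above all controls in the second (log2 0.44 in NGP, SE 0.10, adjusted p = 0.00983). For MANF the SK-N-BE2 libraries were at 49.2, 66.8 and 62.5 CPM with DMSO and 41.9, 42.9 and 44.6 CPM with STM2457. In NGP it was at 43.1, 27.8 and 31.6 CPM with DMSO and 50.9, 51.2 and 43.9 CPM with STM2457. In NGP the highest control and the lowest treated library of MANF nearly met (log2 0.49, SE 0.17, adjusted p = 0.0438), and the call was lost on leaving out any 1 of 5 of the 6 libraries (adjusted p up to 0.138).

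HSPA5 in NGP was at 408, 402 and 367 CPM with DMSO and at 462, 471 and 497 CPM with STM2457. The treated libraries lay above all controls, but the difference was not called (log2 0.26, SE 0.09, adjusted p = 0.0506). It passed without NGP DMSO replicate 1 (adjusted p = 0.00589), while other fits that left out 1 library gave up to 0.204. CRELD2 was at 19.4, 13.1 and 13.4 CPM with DMSO and 19.0, 25.4 and 20.1 CPM with STM2457, overlapping groups (log2 0.47, SE 0.18, adjusted p = 0.0731). DNAJB9, HYOU1 and DNAJC3 were the chaperones that fell in NGP, by 1.16, 0.54 and 0.49. Of the oxidative folding genes TXNDC11 fell by 0.90 and P4HB by 0.40, and of the translocation genes SEC63 fell by 0.80, SEC61A1 by 0.73, SSR1 by 0.47 and SSR3 by 0.29. The calls of DNAJC3 and SSR3 were each lost for 5 of the 6 libraries when that library was left out, and those of SSR1 and P4HB in 2 of 6.

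Folding and degradation arms were then set side by side. The folding arm is the 20 genes of the chaperone, lectin and oxidative folding groups, and the degradation arm the 8 tested degradation genes. In SK-N-BE2, 14 of 20 folding genes fell and 2 rose (median log2 -0.48), while 7 of 8 degradation genes fell and 0 rose (median -0.71). In NGP the folding arm had 5 falls and 5 rises (median 0.06) and the degradation arm 6 falls and 0 rises (median -0.58). The NGP folding shares, 25.0% each way, were near the 22.2% lower and 19.4% higher of all genes. The folding median exceeded the degradation median by 0.23 in SK-N-BE2 and by 0.64 in NGP. The parts of the folding arm differed. In SK-N-BE2 the medians were -0.77 for chaperones, -0.09 for the lectin cycle and -0.36 for oxidative folding. The chaperone median there was thus not above the degradation median. In NGP the medians were 0.24, 0.10 and -0.21 in the same order, each above that of degradation. These medians describe chosen genes and carry no test.

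The contrast was also read library by library, from means rather than medians. The mean log2 CPM of the folding arm minus that of the degradation arm was 0.30, 0.26 and 0.40 in the SK-N-BE2 controls and 0.86, 0.77 and 0.77 with STM2457. In NGP it was 0.02, -0.24 and -0.22 with DMSO and 0.90, 1.05 and 0.96 with STM2457. In both lines every treated library exceeded every control of its line. These means give weight to single deep falls, and the gap was not computed without them. Lowest of the degradation genes in SK-N-BE2 were HERPUD1 (log2 -2.87) and EDEM1 (-1.83), with the others from SEL1L (-1.15) to DERL1 (-0.10). DNAJB9 (-2.19) was lowest of the folding genes there. The summed degradation arm was at 959, 997 and 929 CPM with DMSO and 476, 486 and 473 CPM with STM2457 for SK-N-BE2, and at 1263, 1419 and 1382 CPM and then 432, 439 and 446 CPM for NGP. The summed folding arm was at 5869, 6403 and 5820 CPM and then 4283, 4313 and 4241 CPM in SK-N-BE2, but at 3966, 4067 and 3841 CPM and then 4337, 4474 and 4443 CPM in NGP. The degradation sums were thus lower with STM2457 in both lines, and the folding sums were lower in SK-N-BE2 and higher in NGP. Abundant genes weigh most in these sums. Mean HERPUD1 with DMSO and STM2457 was 296 and 41.5 CPM in SK-N-BE2 and 634.5 and 90.4 CPM in NGP. In the folding arm, mean HSPA5 was 899 and 471 CPM in SK-N-BE2. Mean CALR was 229 and 478 CPM in NGP, where 5 other folding genes fell.

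**Figure D4:**
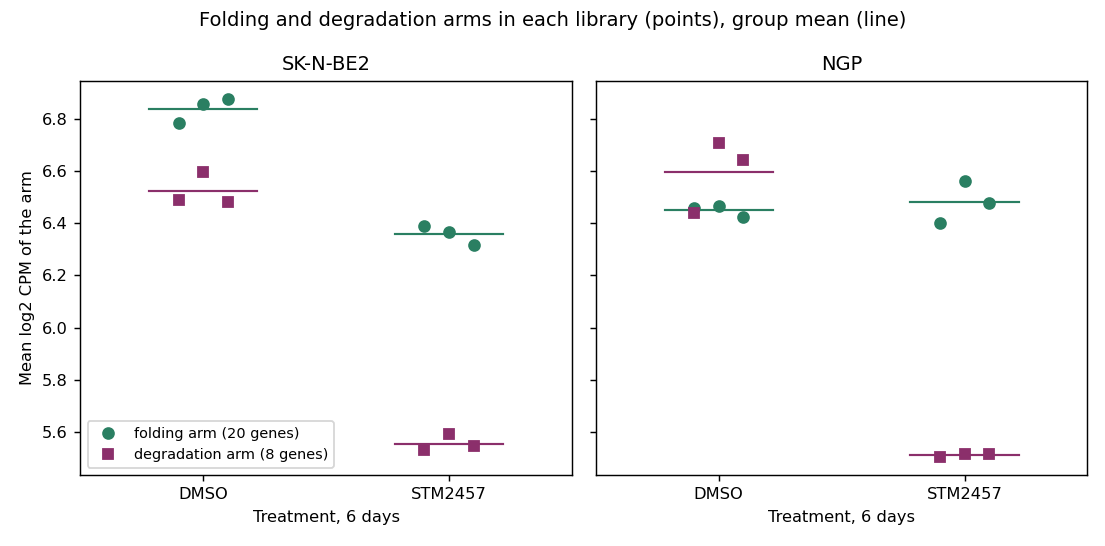
Mean log2 CPM of the folding arm (20 genes, circles) and the degradation arm (8 genes, squares) in each library, with the group mean as a line, for SK-N-BE2 (left) and NGP (right). The degradation arm is lower with STM2457 in both lines, whereas the folding arm is lower in SK-N-BE2 and at about the same mean in NGP.

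Whether the lines responded differently was tested in 1 model of all 12 libraries, as the SK-N-BE2 change minus that of NGP. The difference was negative for 16 of the 40 genes, positive for 3 and not called for 21, against 13.9% negative and 17.0% positive of all 14731 genes tested. Negative means that the change was lower in SK-N-BE2. Of the 20 folding genes 13 differed negatively and 1 positively, while of the 8 degradation genes 0 differed negatively and 1 positively. The degradation count depended on NGP DMSO replicate 1. Without it, the same edgeR test also called SEL1L (adjusted p = 0.000351), EDEM1 (0.0039) and EDEM3 (0.0032) positive and SYVN1 (0.017) negative. The median difference was -0.54 in the folding arm, 0.15 in the degradation arm and 0.02 over all genes.

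CRELD2 had the largest difference, at -1.56 (SE 0.24, adjusted p = 0.000251). Its SK-N-BE2 libraries were at 20.4, 25.3 and 28.4 CPM with DMSO and 11.4, 12.1 and 11.9 CPM with STM2457, so that the treated libraries lay below all controls there and not in NGP. HSPA5 followed at -1.21 (SE 0.14, adjusted p = 3.01e-05) and CALR at -1.11 (SE 0.15, adjusted p = 7.54e-05). The calls of these 3 genes held in each of the 12 fits that left out 1 library. With STM2457 HSPA5 lay between 457 and 479 CPM in SK-N-BE2 and between 462 and 497 CPM in NGP, whereas the controls lay at 814 to 1055 CPM and at 367 to 408 CPM.

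On the positive side ERN1 differed by 0.79 (SE 0.24, adjusted p = 0.0219), since its fall was deeper in NGP, DERL1 by 0.46 (SE 0.12, adjusted p = 0.0110) and UGGT1 by 0.40 (SE 0.15, adjusted p = 0.0498). UGGT1 in NGP was at 138, 186 and 163 CPM with DMSO and 175, 173 and 184 CPM with STM2457, overlapping groups. DERL1 in SK-N-BE2 was at 84.9, 96.9 and 83.4 CPM with DMSO and 82.0, 85.3 and 87.1 CPM with STM2457, which also overlapped. Leaving out 1 library removed the call of UGGT1 in 11 of 12 fits (adjusted p up to 0.144) and that of ERN1 in 5 of 12 (up to 0.0606). For XBP1 the difference was 0.01 (SE 0.16, adjusted p = 0.991) and for HERPUD1 -0.02 (SE 0.12, adjusted p = 0.917), estimates near 0 with standard errors that leave small differences undetectable.

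Across the 2 lines 17 genes fell in both, PDIA4 rose in both, and PDIA3 and MANF fell in SK-N-BE2 and rose in NGP. The 17 included ATF6, ERN1 and XBP1, with HERPUD1, SEL1L, SYVN1, EDEM1 and DERL2 of the degradation arm. DNAJB9, HYOU1, DNAJC3, P4HB and TXNDC11 of the folding arm were also among them. Another 13 fell in SK-N-BE2 and were not called in NGP, among them HSPA5, HSP90B1, CRELD2 and CANX. SDF2L1, SEC62 and TXNDC5 were called in neither line.

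The genes whose promoters hold ERSE or ERSE-II, shown above, did not respond alike. In SK-N-BE2, 8 of these 10 genes fell and 0 rose (median log2 -1.04), against 22 falls and 2 rises among the 27 searched genes with neither element (median -0.55). In NGP 3 of the 10 fell and 1 rose (median 0.04), against 14 falls and 3 rises of the 27 (median -0.47). XBP1 and HERPUD1 fell by over 4-fold in both lines, HYOU1 fell in both, and CALR rose in NGP. HSPA5, with ERSE blocks on the same strand as in XBP1, fell in SK-N-BE2 alone by the per-line tests, and for HSPA5 the difference between the lines was itself called. For the difference between lines 7 of the 10 were negative and 0 positive, against 7 negative and 2 positive of the 27.

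The other genes of the pathway were read from 7 lists, beside the 27.8% lower and 26.9% higher of all genes in SK-N-BE2 and the 22.2% and 19.4% in NGP. Of 42 other folding genes 18 fell (42.9%) and 6 rose in SK-N-BE2, and 12 fell (28.6%, near the share of all genes) and 3 rose in NGP. NUCB2, a calcium-binding protein, fell by 1.93 in the first line and 1.45 in the second (adjusted p = 4.31e-09 and 6.69e-05), the largest fall of that list in each. FKBP10, a prolyl isomerase for collagen, rose in NGP by 0.81 (adjusted p = 0.00160). Of 32 other degradation genes 16 fell and 6 rose in SK-N-BE2, and 12 fell (37.5%) and 2 rose in NGP. In that list VCP, the ATPase that pulls substrates out of the membrane, rose in both lines: it stood at 275, 292 and 261 CPM and then 441, 426 and 420 CPM in SK-N-BE2, and at 242, 210 and 216 CPM and then 402, 406 and 424 CPM in NGP. No VCP libraries overlapped in either line (log2 0.60 and 0.86, adjusted p = 4.84e-05 and 0.000218). SELENOS, which recruits VCP to the ER membrane, fell by 0.99 and 1.01 (adjusted p = 2.08e-06 and 0.000472).

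Of 39 other translocation genes 20 fell (51.3%) and 3 rose in SK-N-BE2. In NGP 11 of them fell (28.2%) and 6 rose (15.4%), shares near the 22.2% and 19.4% of all genes. SEC11C, a catalytic subunit of the signal peptidase, fell by 0.96 and 0.94 (adjusted p = 1.02e-05 and 0.000771). Of the other COPII coat genes 9 of 18 tested fell and 1 rose in SK-N-BE2, and 7 of 19 fell and 2 rose in NGP. Among ER-phagy receptors, which send pieces of ER to the lysosome, 2 of 6 fell and 1 rose in SK-N-BE2 and 3 of 5 fell and 1 rose in NGP. CCPG1, one of these receptors, fell by 1.52 and 1.40 (adjusted p = 3.59e-08 and 0.000132).

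All 10 genes listed as the PERK-ATF4 branch fell in each line, and their median log2 fold changes were -3.21 (SK-N-BE2) and -2.95 (NGP). The part of PERK in these falls was not tested. EIF2AK3, given for its role as the third sensor and outside the naming rule, was not called in either line: its SK-N-BE2 change was -0.11 (SE 0.11, adjusted p = 0.414) and its NGP change -0.28 (SE 0.17, adjusted p = 0.226). Of 15 other signalling genes 7 fell (46.7%) and 3 rose in SK-N-BE2, and in NGP 4 fell (26.7%) and 3 rose, near the 22.2% and 19.4% of all genes. NFYA, a subunit of the CCAAT-binding factor NF-Y, overlapped between the SK-N-BE2 groups, at 49.4, 48.6 and 46.2 CPM with DMSO and 46.2, 50.6 and 47.4 CPM with STM2457. In NGP it was at 20.1, 32.7 and 29.2 CPM with DMSO and 67.7, 65.8 and 72.1 CPM with STM2457. NFYA thus rose in NGP (log2 1.30, SE 0.17, adjusted p = 0.000650), and the difference between the lines was called (-1.33, SE 0.19, adjusted p = 0.000181). NFYC, another subunit, fell in NGP by 0.56 (adjusted p = 0.00147).

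**Figure D5:**
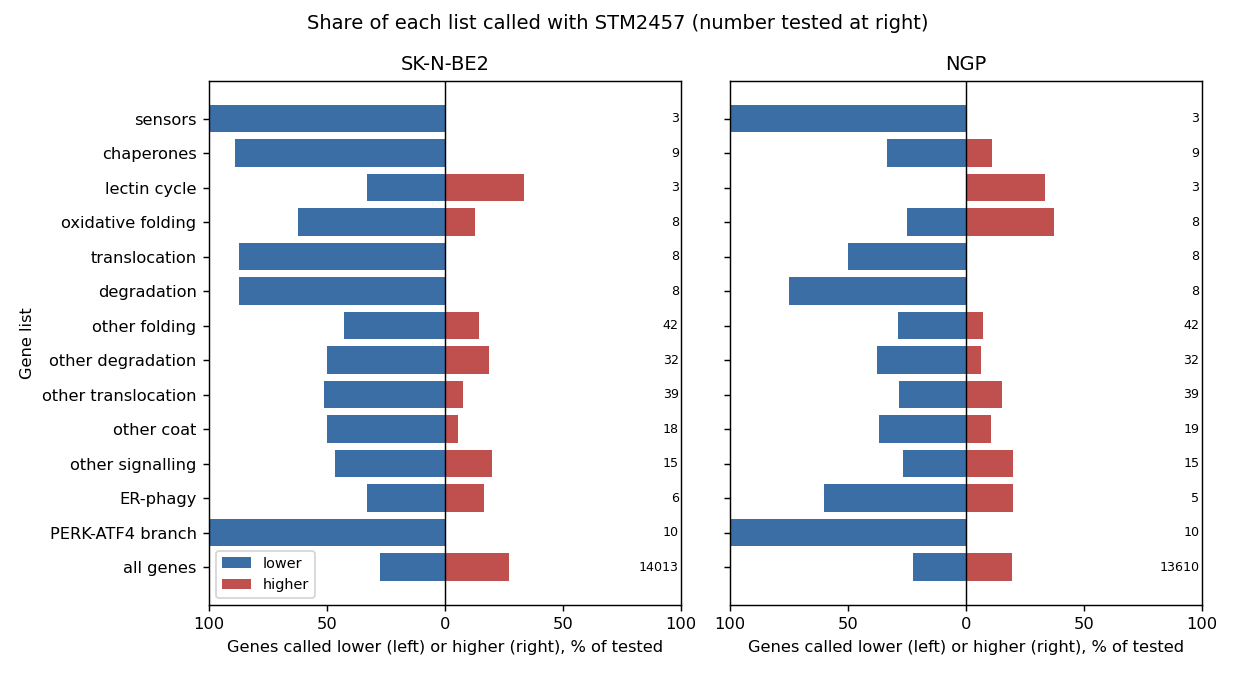
Share of tested genes called lower (blue, to the left) or higher (red, to the right) with STM2457, for the groups of the 41 genes, 7 lists of other pathway genes and all genes, in SK-N-BE2 and NGP; the number tested stands at the right. The sensor group (ATF6, ERN1 and XBP1) and the PERK-ATF4 branch were called lower throughout in both lines. Chaperones were lower in 8 of 9 in SK-N-BE2 and 3 of 9 in NGP.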

How the data were processed

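Each deposited file gives raw read counts for 1 library. Per the file headers, the authors made the counts with featureCounts 2.0.5 on exons of GENCODE 33 protein-coding genes (GRCh38), without a strand option and counting reads rather than pairs; 72.1% to 75.4% of counts from 1 to 20 were even. The submitters' processing notes list FastQC 0.11.5, Trimmomatic 0.36, HISAT2 2.1.0 and Subread 1.5.3. Per the labels, poly(A) RNA was purified before cDNA libraries were built with a SMART kit. RPKM uses the deposited exon lengths.

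Groups follow the sample titles. The quasi-likelihood test of edgeR 4.0.16, run in R 4.3.3, compared STM2457 with DMSO among the 6 libraries of a line, after TMM scaling and filterByExpr with its minimum count of 10. P-values were adjusted by Benjamini-Hochberg over all genes tested, and calls have an adjusted p under 0.05. The difference between lines and the difference between controls were contrasts of 4 group means over 12 libraries. Standard errors are log2 fold changes divided by the square root of F. CPM is on the TMM scale of all libraries, and log2 CPM has a prior count of 2. No spike-in was used, so changes are relative. The 41 genes and the lists were chosen with earlier results of these data known, so they are described by counts and medians with no set test.

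HSPA5, XBP1, ATF6 and ERN1 were named always, with in each line the 6 largest called rises and 6 largest falls without overlap between groups, the 3 largest differences between lines each way, and in each list of other genes up to 2 per direction and line with at least 10 CPM; other members are given by their values. Exons shared with other genes were read from the deposited annotation and GENCODE 44. Promoters are RefSeq windows; protein sequences were not analysed here.

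Same-numbered treated and control libraries did not deviate together (correlations -0.058, 0.088 and 0.031 in SK-N-BE2, 0.015, -0.074 and 0.022 in NGP), so no pairing was used. Replicates differed beyond sampling noise (chi-square per degree of freedom of 2.77 or more in every pair), and all 12 were kept. Simulated counts with 200 genes shifted by 1 on the log2 scale served as a test: 74.1% of the shifted genes were called for SK-N-BE2 (14299 genes run), 82.0% for NGP (14263 genes run) and 53.8% for the difference (14536 genes run). False calls were 5.81%, 3.05% and 5.31% of the calls in the same order. The simulated spread was that of all 12 libraries together, and far fewer genes changed than in the data. These shares thus do not show which line was tested more sensitively. Alternatives were upper-quartile or DESeq2 size factors, a filter at a mean of 1 CPM, no filter, a replicate block, DESeq2 1.42.0, counts halved, a joint fit of all libraries, leaving out each library, and moving DNAJB9 and TXNDC11 to the degradation arm.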

Additional observations from a re-analysis of the deposited data

Results flagged for a closer look

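The 2 lines responded differently to STM2457 in 19 of the 40 genes, by the edgeR quasi-likelihood test of the difference itself (SK-N-BE2 minus NGP, log2). Line, dose and sequencing run cannot be told apart in it. Among chaperones the difference was -1.56 for CRELD2, -1.21 for HSPA5, -1.01 for DNAJB9, -0.98 for MANF, -0.77 for HSP90B1, -0.59 for HYOU1 and -0.38 for DNAJB11. In the lectin cycle it was -1.11 for CALR, -0.45 for CANX and 0.40 for UGGT1. For oxidative folding it was -0.80 for ERO1B, -0.72 for PDIA3, -0.60 for PDIA6 and -0.50 for PDIA4. The remaining genes were SEC61B at -0.75, SSR1 at -0.47, SEC24D at -0.58, DERL1 at 0.46 and ERN1 at 0.79. The adjusted p ranged from 3.01e-05 for HSPA5 to 0.0498 for UGGT1. On leaving out 1 library at a time, the call was lost in 9 of 12 fits for CANX, 8 of 12 for DNAJB11, 4 of 12 for SSR1 and 1 of 12 for SEC24D (without NGP STM2457 replicate 1, adjusted p = 0.0502), beside UGGT1 and ERN1 above, and in 0 of 12 for the other 13.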

How the results depend on the processing

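Of the single-gene values recomputed under the alternatives, 2216 kept their side of the threshold, the called ones with their direction, 49 gained and 94 lost a call, and 1 reversed: SEC61B in NGP ranged from -0.11 to 0.18 with 1 library left out, the latter (adjusted p = 0.0452) without NGP DMSO replicate 1. Leaving out 1 library at a time gave 2 rises and 30 to 33 falls in SK-N-BE2, 4 to 9 rises and 14 to 23 falls in NGP, 1 to 7 positive and 12 to 19 negative differences between lines, and 16 to 18 higher and 10 to 13 lower genes between the controls. In the same fits the folding median minus the degradation median was 0.22 to 0.25 in SK-N-BE2, 0.47 to 0.77 in NGP and -0.85 to -0.62 for the difference. The 9 rises and 7 positive differences came without NGP DMSO replicate 1, and 1 positive difference remained without SK-N-BE2 DMSO replicate 1 or 3, SK-N-BE2 STM2457 replicate 2, or NGP STM2457 replicate 1 or 3. The joint fit gave 9 rises in NGP and lost the SK-N-BE2 falls of EDEM3 (adjusted p = 0.350) and SEC24D (0.0803). With DNAJB9 and TXNDC11, which also assist degradation, moved to the degradation arm, the gap between medians was 0.36 (SK-N-BE2) and 0.92 (NGP). Both genes fell by more than the median of either arm in each line. The move could therefore only widen the gap or leave it, and it is no check of the gap. The cause of the other shifts was not tested.

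HSPA5 in NGP passed the threshold in 5 alternatives besides leaving out a library: DESeq2 size factors, a mean of at least 1 CPM, DESeq2, halved counts and the joint fit. It did not pass in the edgeR test with upper-quartile factors (adjusted p = 0.0523), no filter (0.068) or the replicate block (0.119). With the replicate block, SSR3 in NGP (adjusted p = 0.0807) and, for the difference, DNAJB11 (0.0668) and UGGT1 (0.0793) were lost, and no other call among the 40 genes changed. Upper-quartile scaling moved the median of all genes in SK-N-BE2 to -0.07. With 3 libraries a group, small changes are the least secure, and counts of TXNDC5 and ERO1B are the lowest of those tested.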
